A study of Mus musculus with 8 samples.

Results

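Cells positive for a Mesp1 reporter were compared with reporter-negative cells of mouse embryos at embryonic day 7.5 (E7.5), during gastrulation. The comparison used 4 of the 8 arrays of the series, namely replicates 1 and 2 of the Mesp1_H2BGFP+ cells (GFP+) and replicates 1 and 2 of the Mesp1_H2BGFP- cells (GFP-), chosen by their labelled cell type and stage. The difference between fractions was taken within each replicate number, for every gene with a single name in the platform annotation. Of 17097 genes so named, 11706 lay above a floor for low values on enough arrays to be tested. Both fractions carried the same 2 transgenes, Mesp1-rtTA (a tetracycline-dependent activator driven by Mesp1) and Teto-H2B-GFP (a histone-GFP fusion under its control). GFP+ and GFP- therefore differ in whether the reporter was detected, and the transcripts of the transgenes themselves were not analysed here. Embryos were dissociated with trypsin, dead cells were set aside by propidium iodide, and 50 cells per sample were sorted into lysis buffer. The strain, the inducer and the number of embryos per sample are not given in the sources used here, nor whether the fractions of a replicate number came from the same embryos. Since nothing in the labels separates embryos or litters, P values measure only the spread between these samples, which may be partly technical.

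Gastrulation turns the single epithelial layer of the epiblast into germ layers. Epiblast cells lose their epithelial junctions in the primitive streak, switch on mesodermal transcription factors and migrate away as mesenchyme. Mesp1, a basic helix-loop-helix factor, is switched on briefly in the earliest of these cells, whose descendants include the heart, vessels, head mesenchyme and extraembryonic mesoderm. Stable histone-GFP can persist in a nucleus after its promoter falls silent, so a GFP+ cell at E7.5 may have expressed Mesp1 some time before it was sorted. The GFP- cells are every other living cell of the dissociated sample, and may include epiblast, ectoderm, later streak mesoderm, endoderm and extraembryonic tissue.

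Expression is given as deposited log2 values, on which a difference of 1 is a 2-fold difference. Each fraction had 2 arrays, each standing for 50 cells whose RNA was amplified over 25 PCR cycles. The number of arrays limits the precision. A level on such an array cannot tell apart fewer cells of a type from less RNA per cell. Array medians were 4.20 to 4.23 for replicate number 1 and 4.54 to 4.59 for replicate number 2, so the fractions are compared by their difference within a number. Where both GFP+ arrays are said to lie above or below both GFP- arrays, arrays of both numbers are set side by side with that offset left in. GFP+ replicates correlated at r = 0.925 across genes and GFP- replicates at 0.915, below the 0.969 and 0.936 between the fractions of number 1 and of number 2. These correlations run over genes, which do not vary independently.

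No gene passed the test. With the replicate number as a block, 0 of the 11706 genes (0%) reached an adjusted p of 0.05 in limma with Benjamini-Hochberg adjustment, and the smallest adjusted p was 0.554. Over 13 fits, this one and those with other settings or an array left out, 0 genes passed in each, and the smallest adjusted p ran from 0.065 (a trended robust prior) to 1 (no block). Without adjustment, 755 genes (6.45%) had p under 0.05, 373 of them higher (3.19%) and 382 lower (3.26%) in GFP+, where 585.3 would be reached if no gene differed. This unadjusted count was 479 without GFP+ replicate 2 and 1159 without GFP- replicate 1. An exact permutation test of 2 arrays against 2 that ignores the replicate numbers cannot go below p = 0.333, and keeping them leaves fewer arrangements. Every value below is therefore a description of 4 arrays, and "higher" or "lower" states what these arrays showed.

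Differences repeated little between the replicate numbers. Across genes, the difference within number 1 and the difference within number 2 correlated at r = 0.068, against 0.422 for the same measure at E6.5. Within number 1 alone, 328 genes were at least 2-fold higher (2.8%) and 317 at least 2-fold lower (2.71%) in GFP+, and within number 2 alone 623 (5.32%) and 728 (6.22%). In both numbers, 45 genes were at least 2-fold higher (0.384% of genes tested) and 65 at least 2-fold lower (0.555%). A further 64 genes (0.547%) were at least 2-fold apart in opposite directions. In all, 110 genes were at least 2-fold apart in the same direction in both numbers, against these 64 in opposite directions. Of the 45 higher genes 42 had an unadjusted limma p under 0.05, and of the 65 lower genes 59. Those p values come from the same differences by which the genes were picked, so they give no separate support. Among the lower genes 20 had a GFP+ mean below the floor of 4.38, the median of all deposited values, and among the higher genes 6 had a GFP- mean below it, so the size of those differences is uncertain. Of the 110 genes, 43 had 70 further probe sets, of which 46 had the same sign in both numbers and 7 were at least 2-fold apart in both, so most sizes below rest on 1 probe set.

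**Figure D1:**
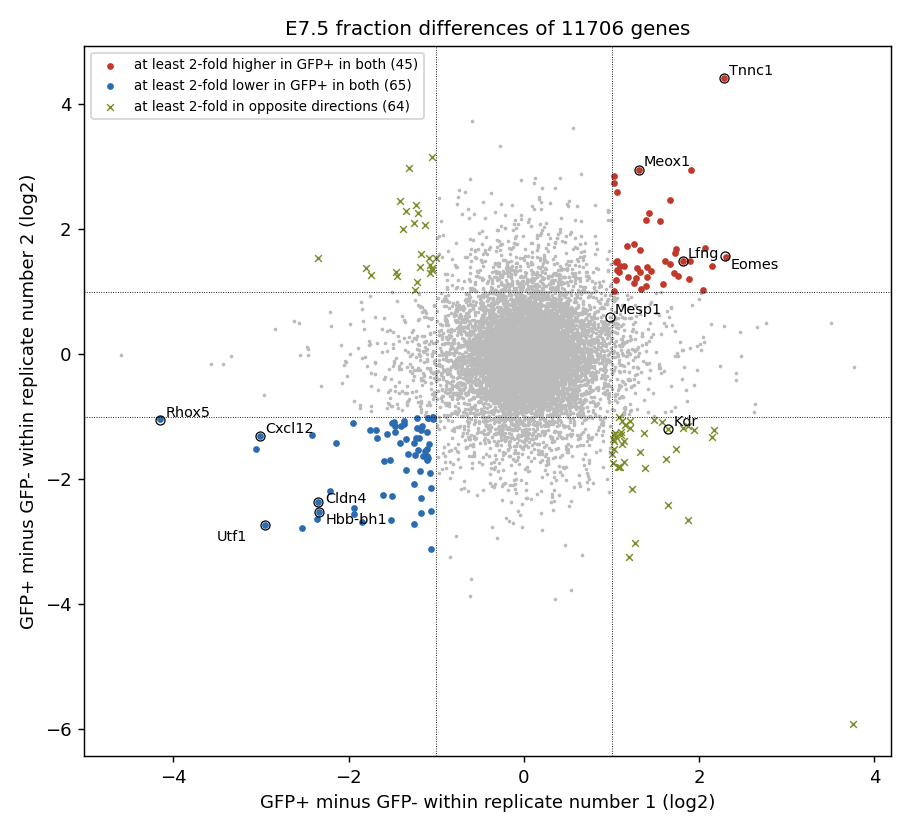
Difference between fractions (GFP+ minus GFP-, log2) of 11706 genes within replicate number 1 (horizontal) and within replicate number 2 (vertical), with dotted lines at 2-fold. Marked are the 45 genes higher in both numbers (red), the 65 lower in both (blue) and the 64 that oppose each other (crosses). Mesp1 lies just inside the 2-fold lines.

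Mesp1 itself differed little between the fractions sorted on its reporter. Its level was 8.75 and 8.65 in GFP+ replicates 1 and 2 and 7.76 and 8.06 in GFP- replicates 1 and 2. Both GFP+ arrays lay above both GFP- arrays, as they did for 1207 genes (10.3%), but GFP- cells were far above the floor as well. The difference was 0.98 within number 1 and 0.59 within number 2, a mean of 0.79 (SE 0.23, adjusted p = 0.688 in limma). At E6.5 the same differences were 4.11 and 3.76. Mesp2, the neighbouring paralogue that acts in forming somites, was at 4.81 and 6.53 in GFP+ and at 4.30 and 4.17 in GFP-. Its GFP- arrays lay at the floor, and its difference of 0.51 in number 1 and 2.37 in number 2 was uneven.

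The promoters shown here belong to 4 genes of the results: the reporter's own gene, a pair of Notch pathway genes that were higher in GFP+ and an epithelial gene that was lower. They were chosen after their values were seen. Each runs from 250 bases before to 50 bases after the RefSeq start on the gene's own strand (GRCm38.p6), with motif matches in capitals. Searched on both strands were AGGTGT (a half-site bound by T-box factors such as Eomes), CAGGTG (the E-box bound by Snai1) and TGGGAA (the core bound by RBPJ, the nuclear partner of Notch). The letters of AGGTGT and CAGGTG can overlap. They occur in 13.7%, 20.2% and 25.6% of 32851 promoters of this length. A match is a description of the letters and no evidence of binding.
Mesp1 (chr7:79793541-79793840, minus strand): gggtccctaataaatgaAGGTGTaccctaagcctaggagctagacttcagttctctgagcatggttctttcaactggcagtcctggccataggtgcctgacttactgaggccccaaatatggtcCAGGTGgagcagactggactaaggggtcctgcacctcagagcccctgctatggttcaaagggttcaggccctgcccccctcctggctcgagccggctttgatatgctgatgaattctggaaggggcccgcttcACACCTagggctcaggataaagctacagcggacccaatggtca
Dll3 (chr7:28301736-28302035, minus strand): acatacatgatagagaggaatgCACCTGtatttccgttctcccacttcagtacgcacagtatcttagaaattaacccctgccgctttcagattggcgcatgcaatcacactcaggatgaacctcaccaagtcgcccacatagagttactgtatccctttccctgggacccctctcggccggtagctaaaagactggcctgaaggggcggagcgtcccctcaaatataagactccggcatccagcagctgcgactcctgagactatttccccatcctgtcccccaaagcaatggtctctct
Lfng (chr5:140607091-140607390, plus strand): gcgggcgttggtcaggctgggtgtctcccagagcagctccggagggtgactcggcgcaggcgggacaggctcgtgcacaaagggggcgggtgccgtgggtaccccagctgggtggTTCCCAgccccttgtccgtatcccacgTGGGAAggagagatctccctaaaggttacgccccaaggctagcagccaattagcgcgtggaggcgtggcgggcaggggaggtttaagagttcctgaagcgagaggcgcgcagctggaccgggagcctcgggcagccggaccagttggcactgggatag
Cldn4 (chr5:134946885-134947184, minus strand): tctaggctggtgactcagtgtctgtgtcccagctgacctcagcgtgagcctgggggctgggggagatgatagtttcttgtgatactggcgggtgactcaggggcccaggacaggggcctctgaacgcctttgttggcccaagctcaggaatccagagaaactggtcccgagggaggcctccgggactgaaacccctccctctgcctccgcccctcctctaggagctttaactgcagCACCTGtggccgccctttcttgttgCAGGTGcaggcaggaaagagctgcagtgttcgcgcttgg
The Mesp1 window held 2 T-box half-sites, at bases 18 and 258, and 1 E-box at base 125, counted from the 5′ end. Dll3 held 1 E-box at base 23, Lfng 2 RBPJ cores at bases 116 and 143, and Cldn4 2 E-boxes at bases 237 and 262. The Dll1 window (first of 2 starts) held 0 matches to these letters.

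Streak and nascent mesoderm genes were mostly higher in GFP+. Of 21 measured, 12 were higher and 4 lower within both numbers, against 24.8% and 26.3% of all genes, and 2 were at least 2-fold higher in both, Eomes and Aplnr. The median difference was 0.53 in number 1 and 0.15 in number 2, where all genes had medians of 0.03 and -0.05. Eomes, the T-box factor that acts upstream of Mesp1 and in definitive endoderm, was at 9.89 and 8.45 in GFP+ and at 7.58 and 6.89 in GFP-. Its GFP+ arrays lay above both GFP- arrays, by 2.30 and 1.56 within the numbers, a mean of 1.93 (SE 0.38, adjusted p = 0.593). A second Eomes probe set gave 2.45 in number 1 but -0.27 in number 2. Aplnr, the receptor for apelin and Apela on migrating mesoderm, was at 10.89 and 10.60 in GFP+ and at 9.86 and 9.58 in GFP-. Its differences of 1.03 and 1.01 were nearly equal, and its other probe set gave a mean of 1.21.

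Other regulators of the streak were less even. Mixl1, a homeobox factor of the streak, was 2.76 higher in GFP+ within number 1 and 0.49 within number 2. Lhx1, a LIM-homeobox factor of axial and nascent mesoderm, was 1.91 and 0.79 higher. Sp5, a transcription factor induced by Wnt signals, was 0.89 and 0.75 higher, and Snai1, the repressor of Cdh1 in the streak, 0.55 and 0.53 higher. Snai1 was high in both fractions, at 10.09 and 10.46 in GFP+ and at 9.54 and 9.93 in GFP-. Cdx2, a caudal homeobox factor of posterior mesoderm and trophoblast, went the other way, at -0.69 and -0.99. Another Cdx2 probe set was at -1.57 and -1.70. The streak gene T was not analysed here.

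Paraxial mesoderm genes, which pattern the presomitic mesoderm and somites, stood higher in GFP+ than any other list drawn up here in both replicate numbers. Of 16 measured, 13 were higher and 0 lower within both numbers, against 24.8% and 26.3% of all genes. At least 2-fold higher in both were 5, against 0.384% of all genes. With an unadjusted p under 0.05 in limma 8 were higher, against 3.19%. This list and the others were drawn up with earlier results of these data known. Their counts beside the shares of all genes are therefore descriptions and give no separate support. The median difference was 0.91 in number 1 and 1.19 in number 2. The mean level of the list was 7.49 and 8.22 in GFP+ and 6.74 and 7.18 in GFP-, so each GFP+ array lay above both GFP- arrays. At E6.5 the list had a median of 1.23, and 5 members were at least 2-fold higher in both numbers, against 1.38% of all genes. These were not the same 5 genes. Dll3 was counted at both stages, while Dll1, Lfng, Meox1 and Tcf15 were counted at E7.5 only.

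The Notch ligands Dll1 and Dll3 and the receptor modifier Lfng were at least 2-fold higher in both numbers. Dll1, a ligand of presomitic mesoderm, was at 9.19 and 9.69 in GFP+ and at 8.02 and 7.97 in GFP-. It was 1.18 and 1.72 higher within the numbers, a mean of 1.45 (SE 0.30, adjusted p = 0.602). Dll3, a divergent ligand that acts in somite segmentation, was at 9.28 and 10.13 in GFP+ and at 8.10 and 8.90 in GFP-. The GFP+ arrays lay above both GFP- arrays, and GFP+ was 1.18 and 1.22 higher than GFP- of the same number. Lfng, a glycosyltransferase that tunes Notch receptors in the segmentation clock, was at 8.53 and 9.22 in GFP+ and at 6.72 and 7.74 in GFP-. Both GFP+ arrays were above both GFP- arrays, by 1.81 and 1.48 within the numbers, and a second probe set gave a smaller mean of 0.75. The promoter letters printed for Dll3 and Lfng belong to these 2 genes.

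Across the Notch pathway the picture was mixed. Of 18 genes measured (medians 0.19 and 0.13), 10 were higher and 4 lower within both numbers, against 24.8% and 26.3% of all genes. The 3 at least 2-fold higher in both were Dll1, Dll3 and Lfng themselves. The receptor Notch1, named after its values were seen, was 1.57 and 0.99 higher. Dtx1, a ubiquitin ligase that acts on Notch receptors, was at least 2-fold lower in both numbers, at 3.94 and 4.38 in GFP+ against 5.61 and 5.73 in GFP-, with its GFP+ levels at or under the floor.

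Factors of the somite programme were mostly higher too. Meox1, a homeobox factor of somites, was at 4.93 and 7.93 in GFP+ and at 3.62 and 4.98 in GFP-. The replicates of each fraction lay far apart, and GFP+ replicate 1 fell just under GFP- replicate 2, although GFP+ was 1.31 and 2.95 higher within the numbers. Tcf15, a helix-loop-helix factor that makes somites epithelial, was 1.08 and 1.32 higher, and Foxc1, a forkhead factor of paraxial and cardiac mesoderm, 0.86 and 1.15 higher. Pcdh19, a protocadherin, was 1.04 and 0.86 higher. These 3 genes were chosen after their values were seen. Tbx6, which commits cells to a paraxial fate, was at 7.68 and 8.88 in GFP+ and at 6.72 and 7.54 in GFP-, higher by 0.96 and 1.34. Foxc2 was 0.28 and 0.79 higher. Msgn1, a master regulator of presomitic mesoderm, did not follow, at 9.44 and 10.05 in GFP+ against 10.00 and 9.98 in GFP-.

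**Figure D2:**
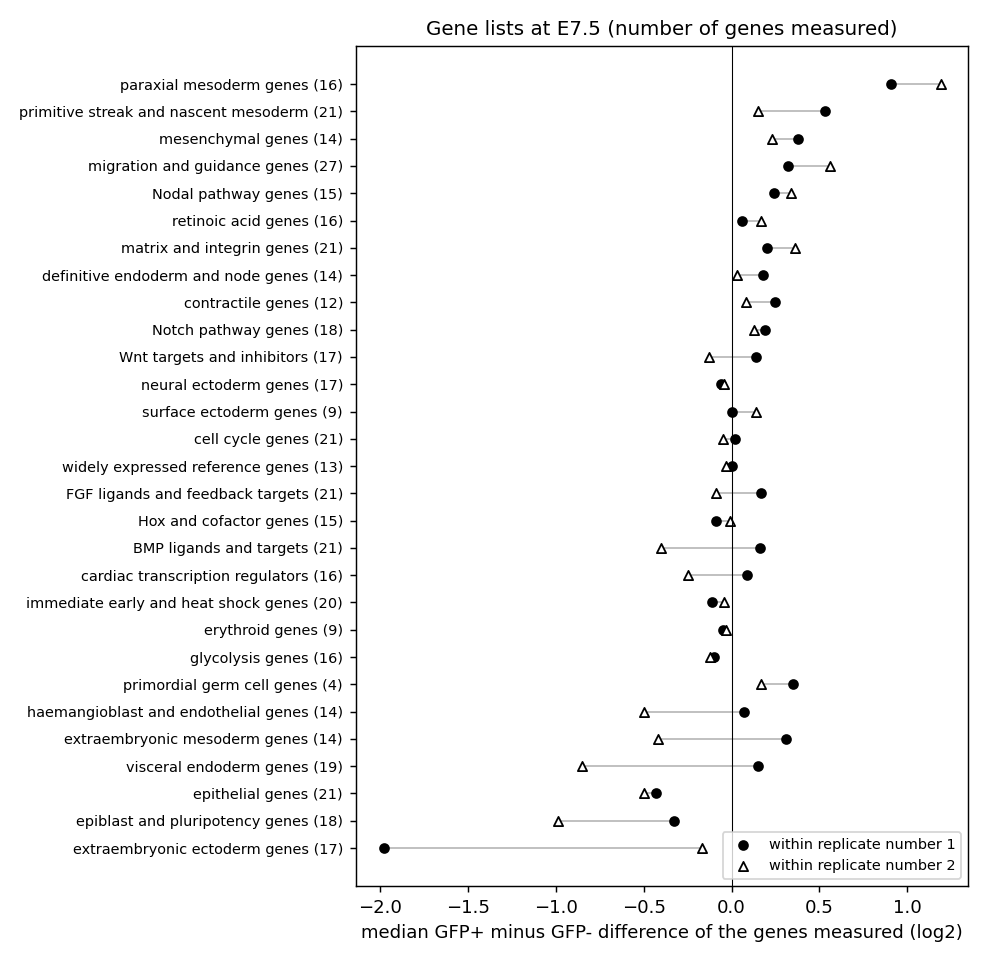
Median difference between fractions (GFP+ minus GFP-, log2) of each of 29 gene lists within replicate number 1 (filled circles) and number 2 (open triangles), with the number of genes measured in brackets. Paraxial mesoderm genes lie at 0.91 and 1.19, epithelial genes at -0.43 and -0.50, and visceral endoderm and extraembryonic ectoderm genes differ most between the numbers.

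Contractile genes were led by Tnnc1, the calcium-binding troponin C of heart and slow muscle, which had the largest repeated difference of all genes higher in GFP+, judged by the smaller of its 2 within-number values. Its level was 6.52 and 8.18 in GFP+ and 4.24 and 3.76 in GFP-. Both GFP- arrays lay below the floor of 4.38, both GFP+ arrays well above it, and the differences were 2.28 and 4.41, a mean of 3.35 (SE 0.56, adjusted p = 0.591). Actc1, cardiac alpha-actin, was at 6.60 and 7.51 in GFP+ and at 4.60 and 6.63 in GFP-. It was 1.99 and 0.87 higher within the numbers, with GFP- replicate 2 just above GFP+ replicate 1. Tnni1, slow troponin I, was 2.06 higher within number 1 and 0.20 within number 2. Myl7, the atrial myosin light chain, was 0.94 higher in number 1 and at -0.15 in number 2. Tpm1, a tropomyosin, was at -0.06 and -0.04.

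As a list the contractile genes did not shift together. Of 12 measured (medians 0.25 and 0.08), 3 were higher and 2 lower within both numbers, against 24.8% and 26.3% of all genes. Tnnc1 alone was at least 2-fold higher in both. Tnnt2, cardiac troponin T, lay below the floor, between 3.48 and 3.67 on the 4 arrays. Tnni3, Ttn and Nebl, other sarcomere genes, were also too low to be tested.

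Cardiac transcription regulators had counts near those of all genes. Of 16 measured, 5 were higher and 3 lower within both numbers, against 24.8% and 26.3% of all genes, with medians of 0.09 and -0.25. Gata4, a zinc finger factor of heart and endoderm, was at 8.69 and 8.45 in GFP+ and at 7.01 and 7.71 in GFP-. Gata6, which overlaps with it in function, was at 9.32 and 8.93 in GFP+ and at 7.68 and 8.24 in GFP-. Both GFP+ arrays lay above both GFP- arrays for each of the pair, by 1.68 and 0.75 for Gata4 and by 1.64 and 0.69 for Gata6. Hand1, a helix-loop-helix factor of left ventricle and extraembryonic mesoderm, was at 10.33 and 7.92 in GFP+ and at 10.05 and 9.68 in GFP-, so that only GFP+ replicate 2 stood apart. Isl1, of second heart field progenitors, was -0.81 and -0.36 apart, in both numbers lower in GFP+. Another Isl1 probe set was at 0.53 and -0.27. Nkx2-5 and Tbx5, of later heart fields, were low on every array, with differences of 0.03 and 0.43 and of -0.07 and 0.00.

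Epithelial genes were lower in GFP+. Of 21 measured (medians -0.43 and -0.50), 16 were lower and 0 higher within both numbers, against 26.3% and 24.8% of all genes. At least 2-fold lower in both were 2, Cdh1 and Cldn4, against 0.555% of all genes. Cdh1, the E-cadherin of epithelial junctions, was at 5.84 and 5.36 in GFP+ and at 6.99 in both GFP- replicates. The groups did not overlap, as for 1265 genes on this side (10.8%), and the differences were -1.15 and -1.64, a mean of -1.39 (SE 0.25, adjusted p = 0.591). Cldn4, a tight junction claudin, was at 4.25 and 4.08 in GFP+ and at 6.61 and 6.44 in GFP-. Both GFP+ arrays were below the floor, so the equal differences of -2.35 and -2.36 have an uncertain size. Its promoter, printed with the others, holds 2 matches to CAGGTG. These letters occur in 20.2% of promoters and also in those printed for Mesp1 and Dll3, which were higher in GFP+. A link between the matches and the Cldn4 level was not tested.

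Other junction and surface genes lay on the same side. Cldn6, an embryonic claudin, was at 9.42 and 9.21 in GFP+ and at 10.93 and 10.04 in GFP-, and Crb3, of the apical Crumbs complex, was -1.56 and -0.86 apart. Cldn7, named after its values were seen, was -1.55 and -0.78 apart. Epcam, an epithelial adhesion molecule, was at 8.32 and 5.39 in GFP+ and at 8.62 and 8.33 in GFP-. Its low value came from GFP+ replicate 2, and within number 1 it differed by only -0.30. The mean level of the list was 6.51 and 6.33 in GFP+ and 7.25 and 6.92 in GFP-.

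Mesenchymal genes did not mirror the epithelial ones in full. Of 14 measured (medians 0.38 and 0.23), 8 were higher and 2 lower within both numbers, against 24.8% and 26.3% of all genes. At least 2-fold higher in both were 0. Fn1, the fibronectin of the migratory matrix, was at 11.41 and 11.18 in GFP+ and at 10.61 and 10.71 in GFP-, above in both arrays by 0.80 and 0.47. Prrx2, a homeobox factor of mesenchyme, was 0.68 and 1.65 higher, and Pdgfrb, a growth factor receptor of mesenchyme, 0.45 and 1.24 higher. Cdh2, the N-cadherin of mesoderm and neural cells, was 0.71 higher in number 1 and at -0.08 in number 2. Its other probe set, however, was higher in both, by 1.36 and 1.18, so the Cdh2 result depends on the probe set. Vim, the intermediate filament of mesenchyme, was lower in GFP+, at 8.63 and 8.85 against 9.31 and 9.63. Pdgfra lay below the floor on all 4 arrays.

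Epiblast and pluripotency genes were lower in GFP+. Of 18 measured, 12 were lower and 2 higher within both numbers, against 26.3% and 24.8% of all genes. At least 2-fold lower in both, against 0.555% of all genes, were 6: Utf1, Slc7a3, Pim2, Grb7, Dnmt3b and Sox2. The median difference was -0.33 in number 1 and -0.99 in number 2. Utf1, a chromatin factor of pluripotent cells, was at 5.30 and 6.56 in GFP+ and at 8.26 and 9.30 in GFP-. Its groups were well apart, by -2.96 and -2.74, a mean of -2.85 (SE 0.52, adjusted p = 0.591). Slc7a3, an amino acid transporter, was at 5.91 and 5.89 in GFP+ and at 8.27 and 8.53 in GFP-. Pim2, a kinase, was at 7.42 and 6.69 in GFP+ and at 8.68 and 9.41 in GFP-. For each of these 3 genes, both GFP+ arrays lay below both GFP- arrays.

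Dnmt3b, the de novo DNA methyltransferase of the epiblast, was high in both fractions, at 9.96 and 9.69 in GFP+ and at 11.09 and 11.24 in GFP-. Sox2, of epiblast, neural ectoderm and trophoblast, was at 3.66 and 2.88 in GFP+, and at 5.81 and 4.30 in GFP-. All but GFP- replicate 1 lay below the floor, so its difference of -1.42 in number 2 has no sure size. Pou5f1, the pluripotency factor Oct4, barely differed, at 10.40 and 9.98 in GFP+ and at 10.40 and 10.61 in GFP-. Dppa5a, named after its values were seen, was 1.02 and 0.85 higher in GFP+. Neural ectoderm genes had medians of -0.06 and -0.04 over 17 measured, and Sox1, an early neural factor, was at 4.43 to 4.54 on all 4 arrays.

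Markers of extraembryonic ectoderm, the trophoblast next to the epiblast, were high on GFP- replicate 1. Of 17 measured, 2 were higher and 9 lower in GFP+ within both numbers, against 24.8% and 26.3% of all genes. Their median was -1.98 in number 1 and -0.17 in number 2. The mean level of the list was 7.11 in GFP- replicate 1, against 5.93 in GFP- replicate 2 and 5.59 in each GFP+ array. The number of members above the floor was 16 of 17 on GFP- replicate 1 and 12 to 13 on the other arrays. Elf5, a factor that defines this tissue, was at 6.60 on GFP- replicate 1 and at 3.45 to 4.03 on the other arrays, and Esrrb was at 7.36 and at 2.86 to 3.79. The part of these cells in the epithelial and epiblast differences within number 1 was not tested. Utf1 stands on this list as well as on that of the epiblast.

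Rhox5, an X-linked homeobox gene of extraembryonic tissue, showed the same array. It was at 5.62 and 6.07 in GFP+, at 9.77 in GFP- replicate 1 and at 7.12 in GFP- replicate 2. Ddah1, an enzyme that breaks down methylated arginine, was at 6.94 and 6.68 in GFP+ and at 10.00 and 8.21 in GFP-. Both genes were at least 2-fold lower within both numbers, with differences of -4.15 and -1.05 for Rhox5 and of -3.06 and -1.53 for Ddah1. Eomes, which is also on this list, was higher in GFP+ by the values given above.

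Visceral endoderm markers, of the absorptive layer that encloses the embryo, were high on GFP- replicate 2. Their mean level was 6.29 there, 5.10 in GFP- replicate 1, and 5.39 and 5.24 in GFP+, with 18 of 19 members above the floor on GFP- replicate 2 and 11 to 13 on the other arrays. The median difference was 0.15 in number 1 and -0.85 in number 2. Afp, Apoa1 and Ttr, secreted proteins of this layer, had differences of -0.86, -0.86 and -0.77 in number 2 and of 0.51, 0.11 and -0.05 in number 1. A pair of other Afp probe sets gave -4.17 and -3.72 in number 2 against 0.00 and 0.04 in number 1. Npl, an enzyme of sialic acid breakdown, was -0.90 and -1.63 apart with both GFP+ arrays below the floor. Definitive endoderm and node genes had medians of 0.18 and 0.03 over 14 measured. Foxa2 was at -0.86 in number 1 and 0.73 in number 2, and Sox17 at -0.50 and -0.47. The part of visceral endoderm cells in the differences of number 2 was not tested.

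**Figure D3:**
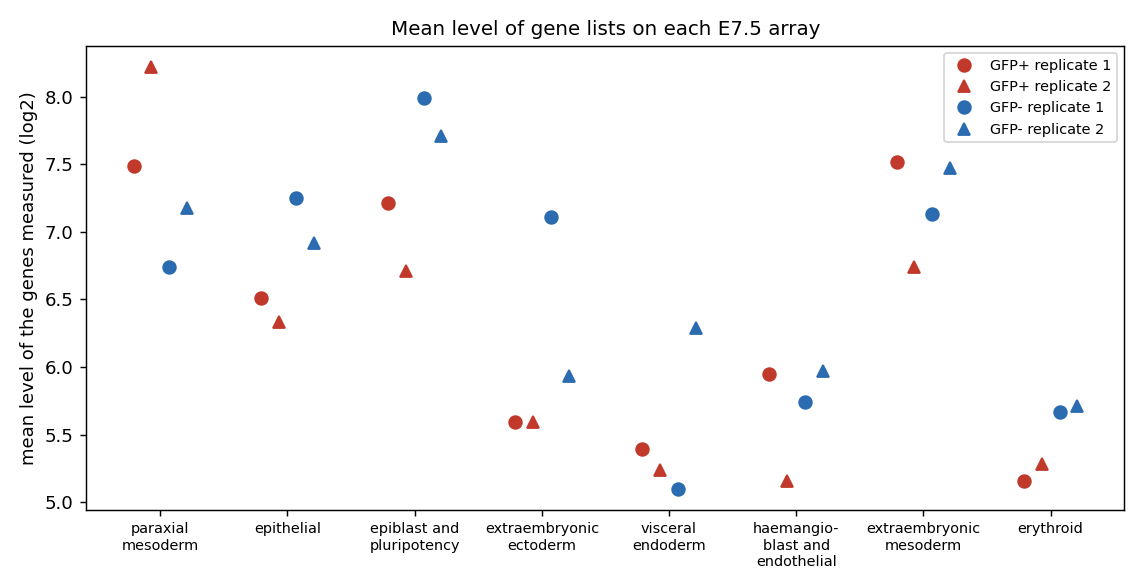
Mean level (log2) of the measured genes of 8 lists on each of the 4 arrays at E7.5, GFP+ in red, GFP- in blue, circles for replicate 1 and triangles for replicate 2. The paraxial, epithelial and epiblast means separate the fractions, the erythroid gap includes that of Hbb-bh1 (-2.34 and -2.52), and extraembryonic ectoderm stands out on GFP- replicate 1 (7.11) and visceral endoderm on GFP- replicate 2 (6.29).

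Hbb-bh1, the embryonic beta-like globin of primitive red cells, had the lowest unadjusted p of any gene. Its level was 3.11 and 3.47 in GFP+ and 5.45 and 5.99 in GFP-. Both GFP+ arrays lay below the floor, and the differences were -2.34 and -2.52, a mean of -2.43 (SE 0.22, adjusted p = 0.554). Of 9 erythroid genes measured, 4 were lower and 1 higher within both numbers, against 26.3% and 24.8% of all genes, with medians of -0.05 and -0.03. Car2, the carbonic anhydrase of red cells, was among the lower ones at -0.25 and -1.68. The higher one was Hba-a1, an adult alpha globin, at 0.42 and 0.63. The other embryonic globin genes, Hba-x and Hbb-y, lay below the floor on too many arrays to be tested, and Hba-x was at 3.36 to 3.73 on the 4 arrays. Gata1, the master factor of red cells, named after its values were seen, was at 7.16 on GFP- replicate 1 and at 4.69 to 4.80 on the other arrays. The part of blood cells in the Hbb-bh1 difference was not tested.

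Haemangioblast and endothelial genes, of the common precursors of blood and vessels, were not shifted alike in the 2 numbers. Of 14 measured (medians 0.07 and -0.50), 6 were lower and 0 higher in GFP+ within both numbers, against 26.3% and 24.8% of all genes. Kdr, the VEGF receptor that marks these precursors, was at 9.19 and 7.27 in GFP+ and at 7.55 and 8.47 in GFP-. It was 1.65 higher in number 1 and -1.20 apart in number 2, each of at least 2-fold but opposed. Etv2, which specifies endothelium, was at 0.67 and -1.68, and Tal1, of blood precursors, at 0.14 and -0.95. Lmo2, the partner of Tal1, was lower in both, at -0.89 and -1.82. Extraembryonic mesoderm genes had a like split, with medians of 0.31 and -0.42 over 14 measured, and their mean level was lowest on GFP+ replicate 2, at 6.74 against 7.13 to 7.52 on the other arrays.

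Signals that pattern the mesoderm showed few large differences. Among BMP ligands and targets (medians 0.16 and -0.40), 5 of 21 were higher and 6 lower within both numbers. These counts are near the 24.8% and 26.3% of all genes. Id2, a BMP-induced inhibitor of helix-loop-helix factors, was at 6.99 and 6.14 in GFP+ and at 8.93 and 8.71 in GFP-. It had the widest repeated gap of the list, -1.94 and -2.56, a mean of -2.25 (SE 0.39, adjusted p = 0.591), and its other probe set gave a mean of -1.42. Id1, a related inhibitor named after its values were seen, was at -0.75 and -1.69. Bmp5, a ligand, was at 5.54 and 5.24 in GFP+ and at 6.79 and 7.32 in GFP-, without overlap, while 2 other probe sets gave only -0.22 and -0.24 in number 1 and -1.02 and -2.48 in number 2. Bmp4, the ligand that trophoblast and extraembryonic mesoderm supply, was at 0.90 and -1.40. Msx2, a homeobox target, was 1.44 and 0.80 higher, and Smad1, a signal transducer of BMP receptors, 1.12 and 0.79 higher. Another Smad1 probe set was at 0.56 and -0.29. Nog, a secreted BMP inhibitor, was 0.41 and 2.81 higher.

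In the Nodal pathway (medians 0.24 and 0.34), 8 of 15 measured genes were higher and 0 lower within both numbers. Among all genes the shares were 24.8% and 26.3%. Lefty2, the inhibitor that Nodal induces in nascent mesoderm, was at 6.49 and 8.38 in GFP+ and at 5.96 and 6.46 in GFP-. GFP+ replicate 1 lay just above GFP- replicate 2, and the differences were 0.53 and 1.91. Of Wnt targets and inhibitors, 4 of 17 were higher and 4 lower within both numbers, near the shares of all genes. Lef1, a nuclear partner of beta-catenin, was 0.49 and 0.71 higher, and Sfrp2, a secreted Wnt inhibitor, -0.82 and -0.94 apart. FGF ligands and feedback targets had 7 of 21 higher and 3 lower, and Spry1, a feedback inhibitor, was 0.43 and 0.77 higher.

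Among retinoic acid genes (medians 0.06 and 0.17), 8 of 16 were higher and 2 lower within both numbers, against 24.8% and 26.3% of all genes. Stra6, the receptor through which cells take up retinol, was at 5.99 and 7.01 in GFP+ and at 3.92 and 5.32 in GFP-. Both GFP+ arrays exceeded both GFP- arrays, by 2.07 and 1.69 within the numbers, a mean of 1.88 (SE 0.42, adjusted p = 0.602). Aldh1a2, the enzyme that makes retinoic acid in mesoderm, was high in both fractions, at 9.00 and 10.09 in GFP+ and at 8.69 and 9.91 in GFP-. Hox and cofactor genes had 3 of 15 higher and 5 lower. Hoxb1 was 0.23 and 0.44 higher, Hoxb3 0.80 and 1.08 higher, and Hoxb4 -0.53 and -0.89 apart. Another Hoxb3 probe set had the opposite direction, at -0.51 and -0.31, and another of Hoxb4 was at -0.03 and -0.14.

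Migration and guidance genes (medians 0.32 and 0.56) had 9 of 27 higher and 2 lower within both numbers, against 24.8% and 26.3% of all genes. Cxcl12, the chemokine that guides migrating mesoderm and endoderm, was at 4.63 and 6.11 in GFP+ and at 7.64 and 7.43 in GFP-. The groups were apart by -3.01 and -1.31, and 2 other probe sets gave smaller means of -0.98 and -0.36. Apela, a secreted ligand of Aplnr, was at 4.68 and 5.92 in GFP+ and at 6.53 and 8.60 in GFP-, with differences of -1.84 and -2.68 where its receptor was higher. Dlc1 was at 10.20 and 10.50 in GFP+ and at 9.13 and 9.60 in GFP-. Its GFP+ arrays were above both GFP- arrays, by 1.07 and 0.90. Another Dlc1 probe set was at 0.81 and -0.27.

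The 15 genes with the largest repeated difference in each direction included several outside these lists. Higher in GFP+ were Cnr1, a cannabinoid receptor, by 1.73 and 1.68, Fhl3, a LIM-domain protein, by 1.56 and 2.13, and Uhrf2, a chromatin-bound ubiquitin ligase, by 1.66 and 2.46. Fam183b was 1.91 and 2.95 higher, Klhl6 2.14 and 1.40, Fbxo8 1.72 and 1.61, and Mcm9, a helicase of DNA repair, 1.39 and 2.14. Cfap69, a protein of cilia and flagella, was 1.43 and 2.26 higher, with both GFP- arrays below the floor, and so were those of the RIKEN transcript 4930533K18Rik, 1.89 and 1.49 higher. Polr3f, a subunit of RNA polymerase III, was 1.67 and 1.44 higher and Klf12, a zinc finger factor, 1.61 and 1.49. Another Uhrf2 probe set had a mean of -0.58 and another Klf12 probe set -0.76, against 2.06 and 1.55 for the ones tested, so these 2 genes rest on the probe set chosen. The same holds for Polr3f, whose 4 other probe sets had means of -0.16 to 0.86, and for Mcm9, whose other one passing the floor was at -0.84 and 2.73.

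Lower in GFP+ was Tfap2a, a factor of surface ectoderm and neural crest, at 4.74 and 5.16 against 6.95 and 7.35 in GFP-. The surface ectoderm list as a whole did not share this, with medians of 0.00 and 0.14 over 9 measured, Tfap2a among them. Trap1a was -2.53 and -2.79 apart and Pipox, a peroxisomal oxidase, -1.94 and -2.46 apart, each with a GFP+ mean below the floor. Slitrk5, a neuronal membrane protein, at -1.61 and -2.26, and Miat, a long noncoding RNA, at -1.51 and -2.65, were below the floor in both GFP+ arrays. Sall2, a zinc finger factor, was -1.59 and -1.70 apart, Vps33b, of endosomal sorting, -1.50 and -2.27 apart, and Ubash3b, a phosphatase, -1.53 and -1.69 apart with both GFP+ arrays below the floor. Among the 10 lowest unadjusted p values were also Acot7, an acyl-CoA thioesterase, at -1.34 and -1.36, and Tpd52 at -1.41 and -1.42. Rab11fip5, of vesicle recycling, at -1.26 and -1.43, was another. So was Ahr, the aryl hydrocarbon receptor, at -1.41 and -1.15 and below the floor in GFP+. Further Tpd52 probe sets were at -1.44 and -2.54 and at 0.06 and 0.27.

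**Figure D4:**
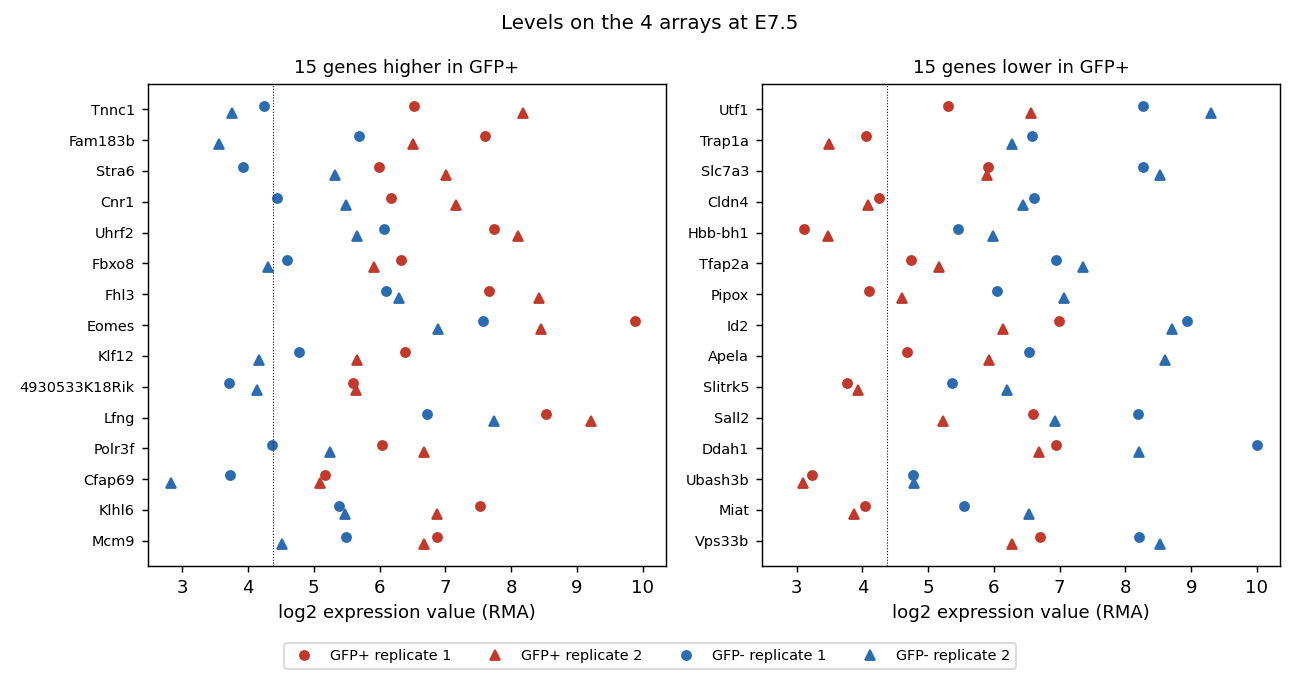
Levels (log2) on the 4 arrays at E7.5 of the 15 genes with the largest repeated difference in each direction, GFP+ in red, GFP- in blue, circles for replicate 1 and triangles for replicate 2, with the floor of 4.38 dotted. Within each replicate number the red and blue symbols are separated for all of them, and several lower genes have GFP+ levels left of the floor.

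Lists of general function had medians close to 0. The widely expressed reference genes had medians of -0.00 and -0.03 over 13 measured. Of these, 2 were higher and 5 lower within both numbers, against 24.8% and 26.3% of all genes. Ppia was at -0.03 in both numbers and Sdha at 0.04 and 0.05. Tfrc, of the same list, was lower in GFP+, at -1.08 and -0.82, and 2 other probe sets gave smaller means of -0.24 and -0.54. Cell cycle genes had medians of 0.02 and -0.05 over 21 measured, and immediate early and heat shock genes, which dissociation can induce, -0.11 and -0.04 over 20. Glycolysis genes had 2 of 16 higher and 10 lower in GFP+ within both numbers, against 24.8% and 26.3% of all genes. Their medians were small, at -0.10 and -0.12. The glucose transporter Slc2a3 was at 9.90 and 8.98 in GFP+ and at 11.10 and 10.32 in GFP-, and its relative Slc2a1 was -0.62 and -0.58 apart. Hk1, a hexokinase, was at 5.96 in both GFP+ replicates and at 7.15 and 7.83 in GFP-, while its other probe set gave a mean of 0.24.

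Across genes, the mean difference between fractions at E7.5 correlated with that at E6.5 at r = 0.255. The stages share no array. At E6.5 the same fit called 30 genes (0.256%), and 161 were at least 2-fold higher (1.38%) and 222 lower (1.9%) within both numbers. Of the 45 genes higher at E7.5, 23 had the same direction in both numbers at E6.5, 5 the opposite one, and 6 were among the 161. Of the 65 lower genes, 48 had the same direction, 9 the opposite one and 25 were among the 222. The share of all genes with a given direction in both numbers at E6.5 was not counted. The counts of same and opposite directions therefore cannot be set against a general share. The lower genes that repeated from the earlier stage included Utf1, at -4.87 and -2.53 at E6.5, Cldn4, at -3.20 and -1.68, and Slc7a3, at -4.78 and -2.30.

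The difference of the stages was tested as the interaction of fraction and stage, and 0 genes passed in limma (smallest adjusted p = 0.288), with 761 (6.5%) at an unadjusted p under 0.05. The 5 genes with the lowest interaction p were Aplnr, Snai1, Mesp1, Fn1 and Dlc1, each higher in GFP+ at both stages and by less at E7.5. Aplnr went from 5.23 and 4.99 at E6.5 to 1.03 and 1.01, an interaction of -4.09, and Mesp1 had an interaction of -3.15. Snai1 had been 3.28 and 2.97 higher at E6.5 and Fn1 3.18 in both numbers. Hoxb1 had been 3.74 and 2.92 higher. Each of the interactions named here has an adjusted p of 0.288.

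Other genes had a wider gap at E7.5 than at E6.5, and none of these interactions passed either. Tnnc1 was at -0.27 and -0.38 at E6.5, an interaction of 3.67 (adjusted p = 0.596). Stra6 was at -1.27 and -0.11 there and Hbb-bh1 at 0.14 and 0.19. Apela was at 0.45 and -0.17, and Tfap2a at -0.18 and 1.47. Eomes, Lfng and Dll1 kept a positive difference at both stages, with E6.5 values of 1.84 and 0.96, of 0.52 and 2.02, and of 1.62 and 0.74.

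**Figure D5:**
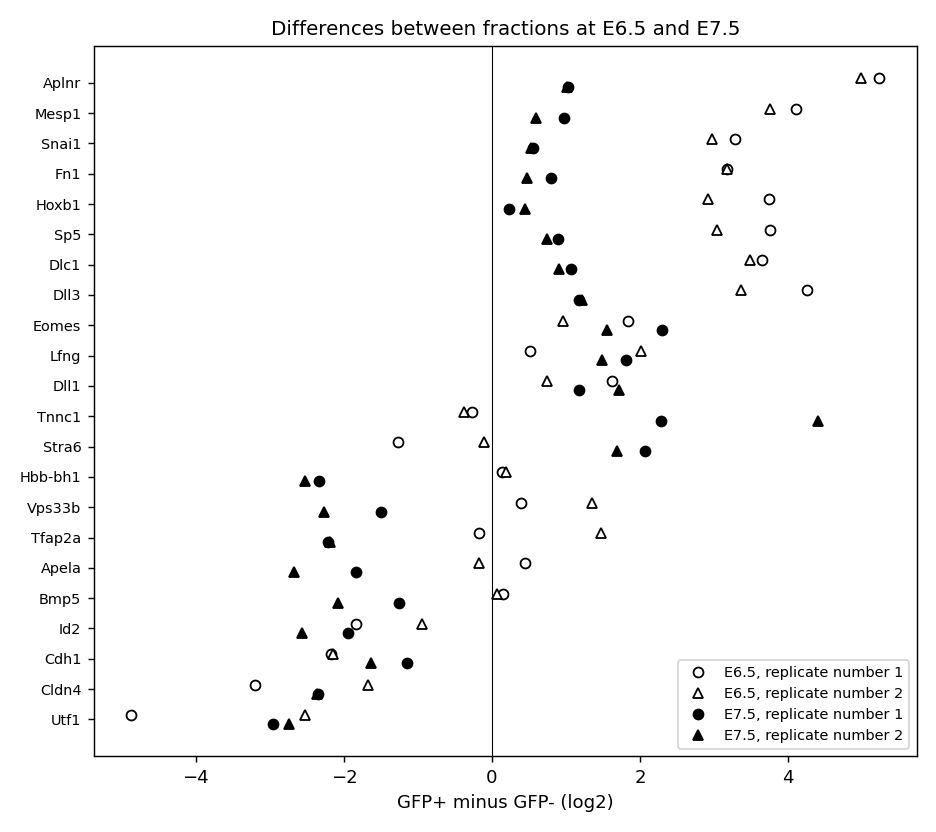
Difference between fractions (GFP+ minus GFP-, log2) of 22 genes at E6.5 (open symbols) and E7.5 (filled symbols), circles for replicate number 1 and triangles for number 2. Genes at the top, such as Aplnr (5.23 and 4.99 against 1.03 and 1.01), lie further from 0 at E6.5, while Tnnc1 and Hbb-bh1 lie near 0 at E6.5 and away from it at E7.5.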

How the data were processed

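The authors deposited log2 expression values per probe set, made with RMA per the submitters' processing notes; its version is not given in the sources used here. Of 45141 probe sets, 104 were controls, 28898 had 1 gene symbol, 551 several and 15588 none in the platform annotation. Probe sets above 4.38, the median of all values, on at least 2 of the 8 arrays were kept, and the one of highest mean stood for a gene (11706 genes). Sequences are from RefSeq, GRCm38.p6.

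limma 3.58.1 (R 4.3.3, lmFit and eBayes) was fitted to the 8 arrays with group means and the replicate number as a block (3 residual degrees of freedom, prior 2.62), two-sided, with Benjamini-Hochberg adjustment at 0.05. The numbers were taken as pairs because the comparison is defined within each number and their value distributions differ. Same-numbered arrays deviated together from the group means in each of 6 pairs of groups (r = 0.401 to 0.532). Some of these pairs join different stages, so the correlation does not tell whether embryos were shared.

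Genes were named by rule: the 15 in each direction with the largest smaller-of-the-pair difference, both arrays of the higher fraction being above the median, up to 4 per list, a set of defining markers, the 10 with the lowest p and the 5 with the lowest interaction p. Others (among them Foxc1, Tcf15, Pcdh19, Notch1, Id1, Cldn7, Grb7, Dnmt3b, Dppa5a, Elf5, Esrrb and Gata1) were chosen after their values were seen. The 29 lists held 543 genes, of which 424 were tested, 71 lay below the floor and 48 had no probe set with a single symbol. The comparison, lists and members were chosen with earlier results of these data known. Alternatives were no block, a random block, a trended robust prior, the 4 arrays alone, other filters, the mean of probe sets, quantile normalization over all arrays, other sizes than 2-fold and leaving out each array.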

Additional observations from a re-analysis of the deposited data

Results flagged for a closer look

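14 of the genes named here had a difference between fractions whose sign was opposite at E6.5 and E7.5 in both replicate numbers. How many of all genes tested did so was not counted, so the 14 cannot be set against a general share. The interaction of fraction and stage was 3.67 for Tnnc1, 2.57 for Stra6, -1.77 for Bmp5, -2.59 for Hbb-bh1 and -2.75 for Vps33b, which were at least 2-fold apart in both numbers at E7.5. It was 2.64 for Spry1, -2.54 for Id1, 1.55 for Tnni1, 1.22 for Dppa5a and 1.09 for Hoxb3. For Aldh1a2 (0.60), Nkx2-5 (0.40), Tpm1 (-0.13) and Ppia (-0.08) it was small. None of these interactions passed in limma. The adjusted p was 0.288 for Hbb-bh1 and Spry1, 0.474 for Vps33b, 0.596 for Tnnc1 and 0.598 for Stra6, and 0.611 to 0.976 for the others. The E6.5 differences were near 0 for Tnnc1 (-0.27 and -0.38), Hbb-bh1 (0.14 and 0.19) and Bmp5 (0.15 and 0.07). Spry1 was at -2.29 and -1.78 at E6.5, Stra6 at -1.27 and -0.11 and Vps33b at 0.39 and 1.35.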

How the results depend on the processing

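With the replicate block dropped, 0 genes were called at E7.5 and 282 had an unadjusted p under 0.05. The count of calls was 0 in all 13 fits. With the block the unadjusted count ran from 479 (without GFP+ replicate 2) to 1159 (without GFP- replicate 1), with 594 on the 4 arrays alone and 1015 with no filter. The smallest adjusted p was 0.065 with a trended robust prior, 0.127 with a random block, 0.194 without GFP+ replicate 1 and 1 with no block. For the interaction, the replicate block as a random effect called 1 gene (Aplnr, -4.09, adjusted p = 0.0484) and a trended robust prior called 4 (Aplnr, Dlc1, Fn1 and Snai1), where limma's main setting called 0; the cause was not tested. Genes higher in both numbers were 8 at a size of 1.5 and 332 at 0.5, and lower genes 15 and 349, by construction of the threshold. Under the other settings the counts were 30 to 47 higher and 45 to 67 lower. These counts need both numbers and could not be computed with an array left out, nor the interaction on 4 arrays. Of 122 genes named, 99 kept their sign throughout, including all 52 that were at least 2-fold apart in both numbers. Those 52 were picked for agreeing in both numbers, so leaving out 1 array could hardly change their sign. With 1 array left out at a time, 23 changed sign: Msgn1 (-0.50 to 0.02), Foxc2 (-0.10 to 1.16), Tnni1 (-0.29 to 2.54), Myl7 (-0.44 to 1.22), Hand1 (-2.29 to 0.81), Tbx5 (-0.13 to 0.06), Cdh2 (-0.14 to 0.77), Kdr (-1.32 to 1.77), Etv2 (-1.99 to 0.99), Tal1 (-1.20 to 0.39), Afp (-0.77 to 0.42), Apoa1 (-1.03 to 0.27), Ttr (-0.98 to 0.16), Foxa2 (-0.90 to 0.77), Bmp4 (-1.26 to 0.77), Aldh1a2 (-0.38 to 0.87) Sox1 (-0.14 to 0.08), Elf5 (-2.78 to 0.70), Tpm1 (-0.16 to 0.06), Spink1 (-4.35 to 2.19), Tbx3 (-2.54 to 1.77), Ahnak (-2.68 to 0.64) and Gata1 (-2.58 to 0.11). Ttr was also at 0.04 under the stricter filter, which keeps another of its probe sets, and Tpm1 at 0.11 over the mean of its probe sets. Depth per array is unknown, and levels near 4.38 cannot be told from background.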

Other observations

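The genes at least 2-fold apart in opposite directions numbered 40 that were higher in GFP+ in number 1 and lower in number 2, and 24 the other way round. Spink1, a secreted protease inhibitor of gut and visceral endoderm, had the widest such split, at 7.39 and 3.49 in GFP+ and at 3.64 and 9.41 in GFP-. Tbx3, a T-box factor of extraembryonic and cardiac mesoderm, was at 8.95 and 5.46 in GFP+ and at 7.30 and 7.87 in GFP-. Ahnak was 1.20 higher in number 1 and -3.24 apart in number 2. These genes were chosen after their values were seen.

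2 secreted regulators of Wnt signalling outside the lists, also chosen after their values were seen, were at least 2-fold higher in GFP+ in both numbers. Wnt5a, a ligand that acts mostly without beta-catenin, was at 5.69 and 6.95 in GFP+ and at 4.43 and 5.81 in GFP-, while its E6.5 differences were 2.72 and 3.67. Frzb, a secreted Wnt inhibitor, was at 9.04 and 8.67 in GFP+ and at 7.78 and 6.92 in GFP-, with E6.5 differences of 5.31 and 3.60. Neither passed in limma (adjusted p = 0.7 and 0.733).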
